A study of Mus musculus with 6 samples.

Results

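Sequences of 30, 31 or 32 nt that began with T or G were collected from 6 small RNA libraries of whole mouse testis. They numbered 1222526 of the 13391447 distinct sequences of 18 to 35 nt, or 9.13%, each counted once however many libraries held it. Length and first base alone chose them, and sequences with an undetermined base were left out. The libraries came from testes lacking Dnmt3L (knockout, KO) with wild-type littermates (WT) at 16.5 days post coitum (dpc), from Dnmt3L KO and WT testes at 10 days post partum (dpp), and from Miwi2 KO and WT testes at 10 dpp. The strain background was C57BL/6 throughout, and the sources used here do not give the alleles. Each library was 1 pool of testes, from 7 or 8 mice at the fetal age and from 3 mice at 10 dpp, and no group had a second library. Every interval below is therefore a 95% interval of counting error alone, and no difference between libraries could be set against a spread between animals. In whole testis, fewer cells of a type and less RNA per cell cannot be told apart.

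piRNAs are small RNAs of germ cells that guide PIWI proteins to transposon transcripts and, in the fetal testis, to transposon DNA. MILI and MIWI2 are the PIWI proteins of fetal mouse germ cells. MIWI2 directs DNA methylation of transposons, and DNMT3L is the cofactor of the enzymes that lay that methylation down. Most primary piRNAs begin with U, read here as T, and their partners from the ping-pong cycle tend to carry A at position 10. The same size range also holds 5′ pieces of tRNAs, which arise when a tRNA is cut in or beside its anticodon loop.

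Library totals ran between 28701563 and 47232494 reads, and levels are given as RPM, the reads of a sequence scaled to a library of 1e6 reads. The sequences of 30 to 32 nt described here held 2292809 reads in the Dnmt3L KO and 2061667 in the Dnmt3L WT library of 16.5 dpc, 6327 in the Dnmt3L KO and 134355 in the Dnmt3L WT library of 10 dpp, and 1284923 in the Miwi2 KO and 1263431 in the Miwi2 WT library. Both Dnmt3L libraries of 10 dpp stood apart. They were the only ones with reads of up to 100 nt, against 50 nt in the other 4, and reads past 28 nt were scarce in them. Their part in each result below was not tested, and the line and the library cannot be told apart at that age. Of the miRNAs listed as testis markers, miR-871-3p of the X-linked cluster was the highest, at 1308 to 17505 RPM over the 6 libraries, and the others lay between 0.0348 and 1141 RPM. Those listed for blood, vessels and epithelium (miR-451a, miR-126a-3p, miR-200b-3p and miR-141-3p) lay between 0.677 and 257 RPM, so both lists overlapped.

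A few abundant sequences and very many rare ones made up the set. Only 46 sequences reached 100 RPM in any library, and 15 of these held the letters of a tRNA start and matched no annotated transcript. That pattern was T at position 8, G at position 10, A at position 14 and GG beginning at position 17, 18 or 19, with any base between, read on the sequenced strand only. The sequences that carried many of the reads are shown with those bases in capitals, because their first base and their 3′ end differ between libraries. No tRNA sequences were among the references, so the amino acid names are background knowledge and not a match.
Val-type, G first: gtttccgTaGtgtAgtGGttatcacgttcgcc
Val-type, T first: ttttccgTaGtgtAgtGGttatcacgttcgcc
Gly-type of 30 nt, G first: gcattggTgGttcAgtGGtagaattctcgc
Gly-type of 31 nt, G first: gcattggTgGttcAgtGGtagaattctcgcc
Gly-type of 32 nt, G first: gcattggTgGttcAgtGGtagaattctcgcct
Gly-type of 30 nt, T first: tcattggTgGttcAgtGGtagaattctcgc
Gly-type of 32 nt, T first: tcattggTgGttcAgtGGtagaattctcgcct
Second Gly-type: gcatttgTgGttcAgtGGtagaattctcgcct
Other Gly-type: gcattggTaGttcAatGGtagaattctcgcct

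The pattern was found in 18780 of the 1222526 sequences, or 1.54%, against 0.914% of the sequences of 30 to 32 nt that began with A or C and 0.512% of those of 24 to 29 nt. In reads it weighed far more. It took 25.9% of the reads in Dnmt3L KO and 32.5% in Dnmt3L WT testes at 16.5 dpc, 14.4% in Dnmt3L KO and 6.61% in Dnmt3L WT testes at 10 dpp, and 16% in Miwi2 KO and 16.1% in Miwi2 WT testes. In the other sets it took at most 1.96% of the reads of any library. Sequences with a tRNA start were therefore a small part of the list and up to 32.5% of its reads.

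The Val-type sequence with G first was the most abundant of all in the Dnmt3L KO library of 16.5 dpc. It stood at 3199 RPM in Dnmt3L KO and 2228 RPM in Dnmt3L WT testes at that age, a ratio of 1.44 (1.42 to 1.45). At 10 dpp it stood at 5.92 RPM in Dnmt3L KO and 14.3 RPM in Dnmt3L WT testes, and at 587 RPM in Miwi2 KO and 407 RPM in Miwi2 WT testes. At this length of 32 nt, both fetal libraries and both Miwi2 libraries held far more of it than the Dnmt3L libraries of 10 dpp. Its family, all sequences of 30 to 32 nt that share positions 2 to 24, was almost wholly of 32 nt, with 99.4% of its reads in the Dnmt3L KO and 99.3% in the Dnmt3L WT fetal library. Read at every length, the same 5′ stretch peaked 1 base beyond the set: it stood at 24953 RPM in Dnmt3L KO and 21444 RPM in Dnmt3L WT fetal testes at 33 nt, while at 32 nt it stood at 4329 RPM in Dnmt3L KO and 3024 RPM in Dnmt3L WT fetal testes. At 10 dpp and 33 nt the stretch stood at 36.6 RPM in Dnmt3L KO and 1478 RPM in Dnmt3L WT testes. The Miwi2 libraries held 2103 RPM of it in KO and 1734 RPM in WT testes at that length. The Dnmt3L WT library of 10 dpp thus lay near the Miwi2 libraries at 33 nt, though not at 32 nt. The Val-type reads described here were thus the short edge of a longer population.

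Gly-type pieces moved in length as well as in level between the fetal libraries. Their family stood at 4257 RPM in Dnmt3L KO and 9222 RPM in Dnmt3L WT testes at 16.5 dpc, a ratio of 0.462 (0.459 to 0.464). The sequence of 32 nt made most of that gap, with 938 RPM in Dnmt3L KO and 4340.3 RPM in Dnmt3L WT testes, a ratio of 0.216 (0.214 to 0.218). The sequence of 30 nt, 2 bases shorter at its 3′ end, went the other way, with 1342 RPM in Dnmt3L KO and 1151 RPM in Dnmt3L WT testes, a ratio of 1.17 (1.15 to 1.18). In shares of the family, 30 nt held 40.8% of the reads in Dnmt3L KO and 16.2% in Dnmt3L WT testes, and 32 nt held 28.9% in Dnmt3L KO and 62.7% in Dnmt3L WT testes. The 3′ end of the same tRNA piece therefore lay at different bases in the 2 libraries, and only the level at 32 nt passed 4-fold. In the Miwi2 line the family stood at 2062 RPM in KO and 1894 RPM in WT testes, a ratio of 1.09 (1.08 to 1.1), with 47.8% of its reads at 30 nt in KO and 36.8% in WT testes.

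The second Gly-type piece and the one labelled other Gly-type were among the 5 sequences with the largest fall in the Dnmt3L line at 10 dpp. The second stood at 0.244 RPM in Dnmt3L KO and 47.9 RPM in Dnmt3L WT testes at 10 dpp, a ratio of 0.00509 (0.00204 to 0.0105). The other piece stood at 0.139 RPM in KO and 13.4 RPM in WT testes, a ratio of 0.0104 (0.00283 to 0.0269). Only 7 reads of the second and 4 of the other were in the Dnmt3L KO library. The second piece, in the Miwi2 line, stood at 83.2 RPM in KO and 99.1 RPM in WT testes, where no such gap was present.

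Sequences that begin with T and copy an abundant sequence that begins with G were common in 4 libraries and nearly missing from 2. Such a pair differs by the substitution G1T, where positions are counted from 1 at the 5′ end of the read. Among sequences of 30 to 32 nt with at least 200 reads and G first, the T-first partner held 29.4% as many reads as its G-first parent in Dnmt3L KO and 30.1% in Dnmt3L WT testes at 16.5 dpc. The share was 13.3% in Miwi2 KO and 13.2% in Miwi2 WT testes. In the Dnmt3L line at 10 dpp it was 0.353% in KO testes, from 1 parent, and 0.26% in WT testes, from 15 parents. The share followed the pair of libraries and not the genotype within a pair. The changes G1A and G1C held at most 0.497% in any library. G1T was seen for each of the 89 parents of the Dnmt3L KO and the 109 parents of the Dnmt3L WT fetal library, and for each of the 106 parents of the Miwi2 KO and the 101 of the Miwi2 WT library. The reverse change, T1G, held 3.59% in Dnmt3L KO and 4.59% in Dnmt3L WT fetal testes, and 0.994% in Miwi2 KO and 3.02% in Miwi2 WT testes.

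One pair shows the size of this. The Val-type sequence with T first stood at 962 RPM in Dnmt3L KO and 686 RPM in Dnmt3L WT testes at 16.5 dpc, while its G-first parent stood at 3199 RPM in Dnmt3L KO and 2228 RPM in Dnmt3L WT testes. At 10 dpp it stood at 0.0697 RPM in Dnmt3L KO and 0.0525 RPM in Dnmt3L WT testes, which is 2 reads in each. Miwi2 testes held 77.4 RPM in KO and 52.9 RPM in WT testes. Changes of G to T away from position 1 were looked for at positions 2 to 12. At position 4 they held 5.93% of the parents' reads in Dnmt3L KO and 6.3% in Dnmt3L WT fetal testes, 7.97% in Miwi2 KO and 7.81% in Miwi2 WT testes, and 0% in Dnmt3L WT testes at 10 dpp, from 3 parents. At position 6, where the first and second Gly-type pieces differ, the change held 1.76% to 22.9% over the 6 libraries, and at the other positions at most 0.988%. Whether the T stands in the RNA or arose in making or reading the library was not tested.

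First base was read with these partners in view. T began 998788 of the 1222526 sequences, or 81.7%, and G the other 223738. In reads, T took 74.1% in Dnmt3L KO and 66.8% in Dnmt3L WT testes at 16.5 dpc, 76.7% in Dnmt3L KO and 85.5% in Dnmt3L WT testes at 10 dpp, and 70% in Miwi2 KO and 68.3% in Miwi2 WT testes. T-first sequences with a more abundant G-first partner held 8.22% of the T-first reads in Dnmt3L KO and 12.6% in Dnmt3L WT fetal testes, and 5.03% in Miwi2 KO and 5.22% in Miwi2 WT testes. Counting them as G would put the share of T at 68% in Dnmt3L KO and 58.3% in Dnmt3L WT fetal testes, and at 66.5% in Miwi2 KO and 64.7% in Miwi2 WT testes. In the Dnmt3L libraries of 10 dpp it would move by at most 0.2 percentage points.

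Most of the set was rare. The 1217111 sequences that stayed under 1 RPM in every library were 99.6% of it, and they held 48.5% of the reads in Dnmt3L KO and 43.9% in Dnmt3L WT testes at 16.5 dpc. They held 45.1% in Dnmt3L KO and 67.9% in Dnmt3L WT testes at 10 dpp, and 40% in Miwi2 KO and 52.8% in Miwi2 WT testes. The 46 abundant sequences held 28.7% in Dnmt3L KO and 32.9% in Dnmt3L WT testes at 16.5 dpc, 20.6% in Dnmt3L KO and 7.08% in Dnmt3L WT testes at 10 dpp, and 29.1% in Miwi2 KO and 22.1% in Miwi2 WT testes. A further 5369 sequences lay between. A sequence seen by a single read made up between 46.7% of the sequences, in the Miwi2 WT library, and 85.3%, in the Dnmt3L KO library of 10 dpp.

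Libraries shared few sequences and many reads. Of the 1222526 sequences, 1072863 (87.8%) were seen in 1 library, 108654 in 2, 25153 in 3, 12103 in 4, 3031 in 5 and 722 in all 6. Those 722 held 32.4% of the reads in Dnmt3L KO and 36.6% in Dnmt3L WT testes at 16.5 dpc, 51.6% in Dnmt3L KO and 22.1% in Dnmt3L WT testes at 10 dpp, and 39.8% in Miwi2 KO and 31.2% in Miwi2 WT testes. The share that matched a transcript was 15.4% among sequences of 1 library and 58.7% among those of all 6. Matched sequences were thus a larger part of the shared ones, and a sequence of few reads is easily missed in another library. Sharing among sequences of other lengths, over all libraries or between pairs of them, is not given here. Whether the low sharing is particular to the set was therefore not tested.

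Between the fetal libraries 86075 sequences were shared, 16.6% of those in Dnmt3L KO and 22.6% of those in Dnmt3L WT testes, and these held 68.9% of the KO and 74.3% of the WT reads. The Miwi2 libraries shared 43547, 20.2% of those in KO and 16.8% of those in WT testes, with 72.8% of the KO and 64.2% of the WT reads. The Dnmt3L libraries of 10 dpp shared 1123, 32.2% of the KO and 2.03% of the WT sequences. These shares depend on depth, so each library was thinned to the 6327 reads of the smallest. At that depth the shared sequences were 10.2% of the KO and 11.2% of the WT sequences in the fetal Dnmt3L line, 9.45% of the KO and 7.18% of the WT sequences in that line at 10 dpp, and 10.9% of the KO and 9.4% of the WT sequences in the Miwi2 line. Pairs of libraries from different lines or ages also shared sequences at that depth, between 2.94% for the Dnmt3L WT library of 10 dpp set against the fetal Dnmt3L KO library and 11.4% for the Dnmt3L KO library of 10 dpp set against the Miwi2 KO library.

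Transcripts accounted for the smaller part of the set. An exact match on either strand to the longest GENCODE transcript of a gene was found for 149752 sequences in sense only, 29322 in antisense only and 36970 on both strands, and 1006482 (82.3%) had none. In reads, 26% (25.9 to 26) matched in Dnmt3L KO and 24.3% (24.2 to 24.3) in Dnmt3L WT testes at 16.5 dpc, and 44.2% (44.1 to 44.3) in Miwi2 KO and 37.9% (37.8 to 38) in Miwi2 WT testes. At 10 dpp 41.2% (40 to 42.5) matched in Dnmt3L KO and 51% (50.8 to 51.3) in Dnmt3L WT testes. Reads of 24 to 29 nt matched more often in each library, between 36.6% and 56.2%. The unmatched part holds tRNA starts and everything outside annotated transcripts, since neither a genome nor a repeat annotation was at hand.

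First base and matching went together. Among T-first reads 30.5% matched in Dnmt3L KO and 31.3% in Dnmt3L WT fetal testes, while among G-first reads 13% matched in Dnmt3L KO and 10.2% in Dnmt3L WT testes. At 10 dpp 49.4% of T-first reads matched in Miwi2 KO and 45.3% in Miwi2 WT testes, while among G-first reads 32.1% matched in Miwi2 KO and 21.8% in Miwi2 WT testes. Rare sequences did not show that gap in the fetal testis, where 21% of T-first and 20.3% of G-first rare reads matched in Dnmt3L KO, and 22.3% of T-first and 21.1% of G-first rare reads in Dnmt3L WT testes. In the Miwi2 line the gap was present among rare reads too, with 42.2% of T-first and 23.7% of G-first reads in KO and 44.3% of T-first and 20.1% of G-first reads in WT testes.

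Strand separated the fetal from the postnatal libraries. Of the matched reads, 15.5% lay only antisense to transcripts in Dnmt3L KO and 15.8% in Dnmt3L WT testes at 16.5 dpc, while 31.1% in KO and 30.3% in WT lay only in sense, and the rest had matches on both strands. At 10 dpp the antisense share was 5.86% in Dnmt3L KO, 5.85% in Dnmt3L WT, 4.53% in Miwi2 KO and 4.38% in Miwi2 WT testes. The sense share there was 45.1% in Dnmt3L KO and 67.8% in Dnmt3L WT testes, and 50.5% in Miwi2 KO and 67.3% in Miwi2 WT testes. Antisense matches were thus higher in both fetal libraries than in the 4 of 10 dpp, and KO and WT lay close together within each pair.

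Within protein-coding genes, sense reads found in 1 gene lay mostly in the 3′ untranslated region. That region held 59.5% of them in Dnmt3L KO and 55.7% in Dnmt3L WT testes at 16.5 dpc, 73.9% in Dnmt3L KO and 89.1% in Dnmt3L WT testes at 10 dpp, and 70.8% in Miwi2 KO and 75.5% in Miwi2 WT testes. Reads of 24 to 29 nt were placed much the same way in the Miwi2 line, with 70.4% in Miwi2 KO and 74.4% in Miwi2 WT testes. In the Dnmt3L line at 10 dpp that region held 70.5% of them in KO and 81.7% in WT testes, the latter below the 89.1% of the set. The coding part held 27% in Dnmt3L KO and 30.4% in Dnmt3L WT fetal testes. Fetal reads of 24 to 29 nt lay differently, with 38.3% in KO and 39.5% in WT testes in the coding part. Their 3′ untranslated share was 50.7% in KO and 47.8% in WT testes, below that of the set.

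The bases at position 10 were read in the rare sequences, where no single tRNA piece sets the letters. These still included 18300 sequences with a tRNA start, a pattern that has G at position 10. Among T-first rare reads, A stood at position 10 in 35.4% in Dnmt3L KO and 34.2% in Dnmt3L WT testes at 16.5 dpc, 36% in Dnmt3L KO and 34.3% in Dnmt3L WT testes at 10 dpp, and 33.3% in Miwi2 KO and 32.1% in Miwi2 WT testes. A was less frequent on either side, at 21.7% to 25.8% at position 9 and 27.9% to 31.9% at position 11 over the 6 libraries. Among G-first rare reads it was 40.8% in Dnmt3L KO and 37.3% in Dnmt3L WT fetal testes, and 26.8% in Miwi2 KO and 25% in Miwi2 WT testes. In the Dnmt3L line at 10 dpp it was 25.2% in KO testes, from 313 reads, and 34.4% in WT testes. The G-first rare reads thus carried A at position 10 more often than the T-first ones in the fetal libraries and less often in the Miwi2 libraries. For G-first rare reads that matched a transcript it was 45.6% in Dnmt3L KO and 43.3% in Dnmt3L WT fetal testes. In the Miwi2 line the matched ones gave 32.7% in KO and 28.9% in WT testes, nearer to the values of all T-first rare reads. Reads of 30 to 32 nt that began with A or C were counted whether rare or not. A stood at position 10 in 49.6% of them in Dnmt3L KO and 46.3% in Dnmt3L WT fetal testes. Over their distinct sequences it was 45.5% in KO and 42.3% in WT.

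Partners on the opposite strand were counted within genes. Among pairs of 5′ ends on opposite strands that overlapped by 1 to 20 nt, with at least 1 of the 2 from the set, an even spread would give each overlap 5%. An overlap of 10 nt, the ping-pong distance, made up 7.73% (7.39 to 8.08) in Dnmt3L KO and 8.21% (7.78 to 8.66) in Dnmt3L WT testes at 16.5 dpc. It made up 9.69% (8.68 to 10.8) in Miwi2 KO and 10.3% (9.22 to 11.4) in Miwi2 WT testes. The Dnmt3L WT library of 10 dpp gave 10.7% (8.72 to 13) and the Dnmt3L KO library 6.52% (1.37 to 17.9), the last from 3 of 46 pairs. In 5 libraries the interval lay above the even share, and within each pair the KO and WT intervals overlapped.

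The same library often held a shorter read with the same 5′ end. A read of 26 to 29 nt with the same 5′ end was present in the same library for 57.6% of rare reads in Dnmt3L KO and 55.5% in Dnmt3L WT testes at 16.5 dpc, and for 48.6% in Miwi2 KO and 47.1% in Miwi2 WT testes. Grouped by their first 24 nt, 38.8% of rare reads in Dnmt3L KO and 38.1% in Dnmt3L WT fetal testes belonged to a group whose most frequent length was 24 to 29 nt. For reads with a tRNA start that share was 0.592% in Dnmt3L KO and 0.591% in Dnmt3L WT fetal testes, and 58.7% in KO and 30.9% in WT belonged to groups most frequent at 33 to 35 nt. Groups most frequent at 30 to 32 nt held 59.2% of rare reads in KO and 59.7% in WT, and 40.7% of reads with a tRNA start in KO and 68.6% in WT. A read alone in its group counts at its own length, so the share of rare reads at 30 to 32 nt is partly set by the choice of the set.

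The level of the whole set was compared between libraries. In the fetal Dnmt3L line it stood at 48543 RPM in KO and 48658 RPM in WT testes, a ratio of 0.998 (0.996 to 1). For the Miwi2 line it was 34524 RPM in KO and 28069.9 RPM in WT testes, a ratio of 1.23 (1.23 to 1.23). At 10 dpp in the Dnmt3L line it stood at 220.4 RPM in KO and 3529 RPM in WT testes, a ratio of 0.0625 (0.0609 to 0.0641). Only the last passed 4-fold, and it rests on the pair of libraries with few long reads. Over every first base, the ratio of Dnmt3L KO to WT at 10 dpp was 1.09 at 24 nt, 0.741 at 25 nt, 0.322 at 27 nt, 0.113 at 29 nt, 0.0678 at 31 nt, 0.0818 at 32 nt, 0.0413 at 33 nt and 0.229 at 34 nt. Among these lengths it was lowest at 33 nt, outside the set. At 33 nt the Val-type stretch alone held 1478 of the 1916 RPM in WT and 36.6 of the 79.1 RPM in KO testes. The low value there therefore cannot be read as a trend with length, and the ratio without that stretch was not tested.

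Both WT libraries of 10 dpp come from mice of one strain and age, and they show how far libraries can differ here. The set stood at 28069.9 RPM in Miwi2 WT and 3529 RPM in Dnmt3L WT testes, a ratio of 7.95 (7.91 to 8). Dnmt3L WT testes stood at 3529 RPM at 10 dpp and 48658 RPM at 16.5 dpc, a ratio of 0.0725 (0.0721 to 0.0729). The difference between ages thus uses the library of 10 dpp that also differed from the other WT library of its age. Without tRNA starts the WT libraries of 10 dpp stood at 23540.5 RPM in the Miwi2 line and 3296 RPM in the Dnmt3L line, a ratio of 7.14 (7.1 to 7.18).

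Single sequences with at least 100 reads over the compared libraries were called where their ratio passed 4-fold. In the fetal Dnmt3L line 131 of 2462 were called higher in KO, or 5.32%, where 4.71% of all sequences of 18 to 35 nt were, and 107 were called lower, or 4.35%, where 4.24% of all were. Scaled to reads of 20 to 23 nt the split was 180 higher and 62 lower. The shares lay close to those of all sequences. Among the 246 tested tRNA starts 6 were called higher and 43 lower, and among the 1320 matched sequences 82 were called higher and 27 lower. The shares for these kinds over all lengths are not given here. Many tRNA starts are variants of the same piece, with 251 sequences in the Gly-type family, so their calls do not count separate RNAs. The median log2 ratio was 0.02, against -0.06 over all sequences tested.

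The Miwi2 line gave more calls, mostly higher in KO. Of 1569 sequences tested 380 were called higher, or 24.2%, where 10.4% of all sequences were, and 53 were called lower, or 3.38%, where 3.63% of all were. Repeat-like sequences, found in at least 10 genes, were part of this: 163 of the 268 tested were called higher and 8 lower. The share called among repeat-like sequences of all lengths is not given here. The median log2 ratio was 0.25, against -0.03 over all sequences. Between both WT libraries of 10 dpp, Miwi2 WT over Dnmt3L WT, 615 of 755 were called higher, or 81.5%, where 30.6% of all sequences were, and 14 were called lower, where 10.9% of all were. The count between WT libraries was larger than the count between Miwi2 KO and WT.

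At 10 dpp in the Dnmt3L line 76 sequences could be tested. None was called higher in KO, where 1.49% of all sequences were, and 68 were called lower, or 89.5%, where 33.5% of all were. The median log2 ratio was -4.81, against -0.54 over all sequences tested. The few long reads in this pair of libraries move with every one of these values, and their part was not tested.

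Classes of transcript differed unequally in the Miwi2 line. Repeat-like reads stood at 4223 RPM in Miwi2 KO and 1135 RPM in Miwi2 WT testes, a ratio of 3.72 (3.68 to 3.76). Ribosomal RNA stood at 1949 RPM in KO and 768 RPM in WT testes, a ratio of 2.54 (2.5 to 2.57). Most of that class was 1 piece of 5S ribosomal RNA, with 1609.5 RPM in KO and 519 RPM in WT testes. Long noncoding RNA in sense stood at 1491 RPM in KO and 714 RPM in WT testes, a ratio of 2.09 (2.06 to 2.12). These classes were higher in KO, none past 4-fold, while sense reads of protein-coding genes stood at 5536 RPM in KO and 5988 RPM in WT testes, a ratio of 0.924 (0.919 to 0.93). Reads only antisense to transcripts stood at 686 RPM in KO and 464 RPM in WT testes, a ratio of 1.48 (1.45 to 1.51).

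The larger classes lay near a ratio of 1 in the fetal Dnmt3L line. Repeat-like reads stood at 2986 RPM in Dnmt3L KO and 2992 RPM in Dnmt3L WT testes, a ratio of 0.998 (0.991 to 1.01). Sense reads of protein-coding genes stood at 3034 RPM in KO and 2809 RPM in WT testes, a ratio of 1.08 (1.07 to 1.09). The small class of mitochondrial tRNA stood at 9.82 RPM in KO and 29.3 RPM in WT testes, a ratio of 0.336 (0.301 to 0.374). At 10 dpp in that line repeat-like reads stood at 29.4 RPM in KO and 252 RPM in WT testes, a ratio of 0.117 (0.109 to 0.125), and protein-coding reads at 31.5 RPM in KO and 1113 RPM in WT testes, a ratio of 0.0283 (0.0265 to 0.0302). These 2 classes were past 4-fold lower in KO in the pair of 10 dpp, where long reads were few.

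Some of the most abundant matched sequences, and sequence D, one of the largest rises in Miwi2 KO testes, are shown with positions 1 and 10 in capitals, since these are the positions that mark primary and ping-pong piRNAs. Coordinates are those of the first gene that matched, on GRCm38, and a sequence found in several genes cannot be placed in one of them.
Snord49a piece, sense, chr11:62603450-62603521: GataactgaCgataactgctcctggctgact
Sequence A, in sense to 25 and antisense to 6 genes, first Gm17131, chr5:127878531-127882376: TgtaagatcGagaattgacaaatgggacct
Sequence B, in sense to 2 and antisense to 6 genes, first Gm37767, chr1:162086635-162088468: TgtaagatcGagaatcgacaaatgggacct
Sequence C, antisense to 9 genes, first 4933427J07Rik, chr2:128955671-128957861: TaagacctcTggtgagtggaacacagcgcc
Gm7968 piece, sense, chr15:35589314-35591638: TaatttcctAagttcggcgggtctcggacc
Sequence D, in sense to 8 and antisense to 2 genes, first the coding part of Gm21897, chr16:15317458-15318957: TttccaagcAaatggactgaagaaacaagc

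Sequence A stood at 171 RPM in Miwi2 KO and 29.3 RPM in Miwi2 WT testes, a ratio of 5.83 (5.49 to 6.19). Sequence B stood at 138 RPM in KO and 5.24 RPM in WT testes, a ratio of 26.3 (23.1 to 30.2). Sequence C stood at 99.5 RPM in KO and 3.35 RPM in WT testes, a ratio of 29.6 (25.2 to 35.1). All of these passed 4-fold in the Miwi2 line. Sequences A and B differ by a single base, so they are not separate examples. Sequence D stood at 38.6 RPM in KO and 0.222 RPM in WT testes, which is 1435 against 10 reads. Its level in the other 4 libraries was 0.0212 to 0.212 RPM, so the Miwi2 KO library stood alone for this sequence.

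Sequences A to C stayed within 4-fold in the fetal Dnmt3L line. Sequence A stood at 159.6 RPM in Dnmt3L KO and 167 RPM in Dnmt3L WT testes, a ratio of 0.953 (0.923 to 0.985). Sequence B stood at 133 RPM in KO and 84.9 RPM in WT testes, a ratio of 1.57 (1.51 to 1.64). Sequence C stood at 171 RPM in KO and 193 RPM in WT testes, a ratio of 0.884 (0.857 to 0.912). Their levels in Miwi2 KO testes at 10 dpp were thus near the fetal ones for A and B, and the Miwi2 WT levels were lower. The Dnmt3L libraries of 10 dpp were low in all of these: sequence A stood at 1.46 RPM in KO and 5.25 RPM in WT testes, sequence B at 1.05 RPM in KO and 0.131 RPM in WT testes, and sequence C at 0.592 RPM in KO and 0.0525 RPM in WT testes. B had 30 reads in KO and 5 in WT testes and C had 17 in KO and 2 in WT testes, under the 100 reads needed for a call.

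A repeat-like sequence of 31 nt, found in the 3′ untranslated region of Bora, a cofactor of the mitotic kinase Aurora A, matched 50 genes in sense and 14 antisense. It stood at 478 RPM in Miwi2 KO and 18.3 RPM in Miwi2 WT testes, a ratio of 26.2 (24.4 to 28.1). Fetal Dnmt3L testes held 16.7 RPM of it in KO and 10.5 RPM in WT testes. It was lower in both fetal libraries than sequences A to C. A piece of 5S ribosomal RNA, 32 nt with G first and matching 44 annotated 5S copies, was the most abundant matched sequence of all. It stood at 1609.5 RPM in Miwi2 KO and 519 RPM in Miwi2 WT testes, a ratio of 3.1 (3.06 to 3.15), and at 123 RPM in Dnmt3L KO and 127 RPM in Dnmt3L WT fetal testes.

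The pieces of single RNAs kept to their own pattern. Snord49a, a small nucleolar RNA that guides methylation of ribosomal RNA, stood in the sequence shown above at 149.9 RPM in Dnmt3L KO and 54.4 RPM in Dnmt3L WT fetal testes, a ratio of 2.75 (2.63 to 2.89). Between the Miwi2 libraries it stood at 218 RPM in KO and 153 RPM in WT testes, a ratio of 1.43 (1.38 to 1.47). The Gm7968 piece was fetal: it stood at 237 RPM in Dnmt3L KO and 186 RPM in Dnmt3L WT testes at 16.5 dpc, against 1.5 RPM in Miwi2 KO and 0.533 RPM in Miwi2 WT testes. Both Dnmt3L libraries of 10 dpp had 0 reads of it, which allows up to 0.105 RPM in KO and 0.0788 RPM in WT testes.

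The largest single differences in the fetal Dnmt3L line fell in a few genes and in tRNA starts. Of the 5 sequences with the largest rise in KO, 3 matched the 3′ untranslated region of D10Wsu102e. The first of them, which also matched other genes on both strands, stood at 7.85 RPM in Dnmt3L KO and 0.165 RPM in Dnmt3L WT testes, a ratio of 47.5 (22.8 to 119). Another sequence that matched 9 genes in sense, D10Wsu102e first, and 39 antisense went the other way, at 37.6 RPM in KO and 179.7 RPM in WT testes, a ratio of 0.21 (0.199 to 0.221). Sequences that matched this gene thus moved in both directions. The 5 with the largest fall all held a tRNA start and matched no transcript, and the first stood at 0.148 RPM in KO and 40.3 RPM in WT testes. The other 4 of these had 0 to 3 reads in KO and 107 to 523 reads in WT testes.

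Among Miwi2 testes 3 of the 5 largest rises were repeat-like, sequence D among them. The one found in 20 genes in sense, the odorant receptor gene Olfr46 first, stood at 69.1 RPM in Miwi2 KO and 0.355 RPM in Miwi2 WT testes, a ratio of 194 (119.5 to 341). The 5 largest falls matched no transcript and held no tRNA start. They had 0 to 6 reads in KO and 143 to 492 reads in WT testes, and at most 7 reads in any other library. Such sequences of 1 library could not be assigned to a gene, and their origin was not tested.

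In the Dnmt3L line at 10 dpp all 5 of the largest falls rested on 1 to 7 reads in KO. A piece found in 7 genes and classed as small nuclear RNA is shown, again with positions 1 and 10 in capitals. It was chosen as the only one of these falls whose first match was a noncoding transcript. The coordinates are those of that first gene, and the piece cannot be placed in a single gene. It stood at 0.0348 RPM in KO and 9.93 RPM in WT testes, a ratio of 0.00351 (8.86e-05 to 0.0197).
Small nuclear RNA piece, first gene B930036N10Rik, chr1:171500568-171504111: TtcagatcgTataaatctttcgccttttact

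Genes were summed over the sense reads found in no other gene. D10Wsu102e held the most, with 99.6% of its reads in the 3′ untranslated region, and stood at 245 RPM in Dnmt3L KO and 195 RPM in Dnmt3L WT fetal testes, 1.39 RPM in Dnmt3L KO and 30 RPM in Dnmt3L WT testes at 10 dpp, and 130.4 RPM in Miwi2 KO and 144 RPM in Miwi2 WT testes. It was the only one of the 10 highest genes above 1 RPM in all 6 libraries apart from Snord49a. Tmem245, a transmembrane protein gene, stood at 9.57 RPM in Dnmt3L KO and 5.74 RPM in Dnmt3L WT fetal testes, and at 31.6 RPM in Miwi2 KO and 53.8 RPM in Miwi2 WT testes. Tmem245 was higher in the Miwi2 libraries than in the fetal ones, and Gm42427 was the reverse, at 90.2 RPM in Dnmt3L KO and 67.4 RPM in Dnmt3L WT fetal testes against 1.34 RPM in Miwi2 KO and 2.58 RPM in Miwi2 WT testes.

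Noct, the gene of the circadian phosphatase nocturnin, differed most between Miwi2 KO and WT among the 10 highest genes. It stood at 72.3 RPM in Miwi2 KO and 6.71 RPM in Miwi2 WT testes, and 99.5% of its reads lay in the 5′ untranslated region. Its reads of 24 to 29 nt stood at 364 RPM in KO and 39.9 RPM in WT testes, so the shorter reads went the same way. The fetal libraries held 19.8 RPM in Dnmt3L KO and 20.3 RPM in Dnmt3L WT testes. Fth1, the ferritin heavy chain gene, stood at 59.4 RPM in Miwi2 KO and 47.7 RPM in Miwi2 WT testes. Rabggtb, the gene of a subunit of the enzyme that lipidates Rab proteins, stood at 32.5 RPM in KO and 46.1 RPM in WT testes. Its reads came from 7 sequences and lay nearly all in the 5′ untranslated region. At 24 to 29 nt it stood at 0.914 RPM in Miwi2 KO and 0.978 RPM in Miwi2 WT testes. A sequence among the 10 highest matched also had Rabggtb first, but it matched 2 genes and was classed as small nucleolar RNA. Whether the Rabggtb reads come from such an RNA was not tested. Rny1, a Y RNA, stood at 40.2 RPM in KO and 38.6 RPM in WT testes.

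Few genes passed 4-fold in the fetal Dnmt3L and the Miwi2 line. In the fetal Dnmt3L line 2 of 205 genes tested were called higher in KO, where 0.282% of all genes with sense reads of 24 to 32 nt were, and 2 were called lower, where 0.197% of all were. In the Miwi2 line 18 of 698 were called higher, where 1.31% of all were, and 16 were called lower, where again 1.31% of all were. At 10 dpp in the Dnmt3L line none of 58 was called higher, where 0.224% of all were, and 57 were called lower, where 81.4% of all were. The median log2 ratio of the genes tested was 0.03 in the fetal Dnmt3L line, -0.51 in the Miwi2 line and -6.11 in the Dnmt3L line at 10 dpp.

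The 5 genes with the largest rise in Miwi2 KO included 2 protein-coding ones. Nrros, which encodes a regulator of reactive oxygen species, stood at 3.39 RPM in Miwi2 KO and 0.0222 RPM in Miwi2 WT testes, where it rests on 1 read, and its ratio has an interval of 26.9 to 6066. Bicd1, which encodes a dynein adaptor, stood at 2.93 RPM in KO and 0 RPM in WT testes, where a count of 0 allows up to 0.0667 RPM. Only 5 sequences made up the Bicd1 reads. At 24 to 29 nt Bicd1 stood at 0.806 RPM in KO and 0.267 RPM in WT testes, a ratio of 3.02, short of 4-fold. Gm47031, annotated as a sense intronic transcript, stood at 65.1 RPM in KO and 4 RPM in WT testes, a ratio of 16.3 (14 to 19). Gm47031 was the only one of the 5 above 50 RPM in KO, and its reads of 24 to 29 nt stood at 69.2 RPM in KO and 7.22 RPM in WT testes. Of the largest falls, Plin3, which encodes a lipid droplet protein, stood at 0.188 RPM in KO and 2.33 RPM in WT testes, and Gen1, which encodes a resolvase of DNA junctions, at 0.296 RPM in KO and 2.42 RPM in WT testes.

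In the fetal Dnmt3L line the genes at either end were noncoding ones, and small nucleolar RNAs stood at both. Snord52, a small nucleolar RNA, stood at 3.79 RPM in Dnmt3L KO and 0.944 RPM in Dnmt3L WT testes, a ratio of 4.01 (2.84 to 5.81). Snord70, of the same class, stood at 0.318 RPM in KO and 2.76 RPM in WT testes, a ratio of 0.115 (0.0624 to 0.198). The mitochondrial tRNA mt-Tc stood at 5.12 RPM in KO and 17.6 RPM in WT testes, a ratio of 0.292 (0.251 to 0.338). Reads of 24 to 29 nt did not follow for Snord52, at 1.84 RPM in KO and 4.72 RPM in WT testes, nor for Snord70, at 0.423 RPM in KO and 0.0708 RPM in WT testes. In the Dnmt3L line at 10 dpp the largest falls included Bend4, at 0.0697 RPM in KO and 9.25 RPM in WT testes, and Cbx5, which encodes the heterochromatin protein HP1 alpha, at 0.139 RPM in KO and 9.82 RPM in WT testes. Both kept most of their reads in the 3′ untranslated region, with 95.4% for Bend4 and 97.5% for Cbx5.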

How the data were processed

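Per the labels' protocols, whole testes gave total RNA by Trizol, and small RNA of 18 to 35 nt went into TruSeq libraries from Illumina. The deposited files list each read sequence with its count, and these raw counts are whole numbers that the authors did not normalise. The genome build was mm9, per the submitters' processing notes; the sources used here name neither aligner nor trimming. Counts were divided by the library's total reads to give RPM, and lines repeating a sequence were summed. Sequences of 30, 31 or 32 nt with T or G first and no N were taken as the union over the 6 files. Matching allowed no mismatch and read either strand, with 1 transcript, the longest, for each of 55450 genes of GENCODE release M21 (GRCm38, the build of the coordinates). No genome, tRNA or repeat annotation was used here.

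Abundant means at least 100 RPM in any library, rare means under 1 RPM in every library, and repeat-like means at least 10 genes. With 1 pool per group no test was possible. Ratios carry exact conditional binomial intervals and shares Clopper-Pearson intervals, both at 95%; reads have no molecular identifiers, so intervals and the floor of 3 counts cover counting error only. Sequences and genes with at least 100 reads over both libraries were called past 4-fold. Named were the 10 highest matched and the 10 highest unmatched sequences, the 10 genes with the most sense reads, and in each KO and WT comparison the 5 largest rises and the 5 largest falls. Of these, pieces of ribosomal RNA, of untranslated regions and of uncertain origin are given without their letters. Some named items are not reported here. The members and lists were chosen with earlier results of these data known. Alternatives changed the scaling, the read minimum, the matching and the members counted. Scripts were tested on simulated data. Python 3.11.15, numpy 2.4.6, pandas 2.3.3, scipy 1.17.1 and numba 0.67.0 were used.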

Additional observations from a re-analysis of the deposited data

Results flagged for a closer look

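The level of all sequences of 30 to 32 nt with T or G first moved in opposite directions in KO testes of the 2 lines at 10 dpp. The log2 ratio of KO to WT was 0.30 in the Miwi2 line and -4.00 in the Dnmt3L line. Each rests on 1 KO and 1 WT pool, so the difference was not tested, and the Dnmt3L pair is the one with few reads past 28 nt. The line and the library cannot be told apart.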

How the results depend on the processing

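In the fetal Dnmt3L line the log2 ratio of the level, -0.00, became 0.01 when scaled to reads of 18 to 35 nt, 0.27 when scaled to reads of 20 to 23 nt, 0.06 for distinct sequences, 0.08 without abundant sequences, 0.17 for 30 nt only, 0.02 with any first base and 0.03 without T-first sequences that have a more abundant G-first partner. The last alternative was chosen after seeing the data. For distinct sequences the log2 ratio of Miwi2 WT to Dnmt3L WT at 10 dpp became 1.37 (2.99 in reads), and that of Dnmt3L WT at 10 dpp to 16.5 dpc became -1.66 (-3.79 in reads), both short of 4-fold. Counts of sequences past 4-fold moved with the read minimum, which sets how many are tested, while their share stayed at 9.15% to 12.4% in the fetal Dnmt3L line, 85.7% to 91.4% in the Dnmt3L line at 10 dpp and 27.6% to 28.7% in the Miwi2 line. With 300 reads, 30 reads, and a limit at the 95th percentile between both WT libraries of 10 dpp (log2 of 7.74), they numbered 66, 1113 and 5 in the fetal Dnmt3L line (238 as reported), 18, 296 and 22 in the Dnmt3L line at 10 dpp (68 as reported), and 143, 1629 and 38 in the Miwi2 line (433 as reported). The KO minus WT difference in the share matching a transcript, in percentage points, reversed in the fetal Dnmt3L line for distinct sequences (-1.45) and without abundant sequences (-0.115), against 1.72 as reported, and was 2.21 when the first 24 nt were matched and 1.17 without the T-first partners. In the Dnmt3L line at 10 dpp it reversed to 0.92 for distinct sequences and was -7.88 without abundant sequences, against -9.78. In the Miwi2 line it was 6.84 for the first 24 nt, 5.86 for every transcript, 0.188 for distinct sequences, 4.67 without abundant sequences and 6.56 without the T-first partners, against 6.35. The causes were not tested. The other 33 values kept their direction and their side of 4-fold. No paired analysis was possible because each group was 1 pool. Depth limits the Dnmt3L KO library of 10 dpp most, with 6327 reads in the set.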
